A study of Mus musculus with 33 samples.

Results

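The chemokine axes that bring T cells into tissue were followed as 5 genes of the 32285 measured: the ligands Cxcl9, Cxcl10 and Cxcl16 and the receptors Cxcr3 and Cxcr6. They were taken by name as the members of these axes, and all 5 were found in the gene lists of both experiments. The samples are mouse bone, brain, liver and lung cells from a niche-labelling study of bone metastasis, in which a biotin tag was deposited overnight and cells were then sorted into biotin-positive and biotin-negative fractions for single-cell RNA sequencing. In the first experiment mice had an intracardiac injection, and each of the 4 tissues gave 4 biotin-positive and 4 biotin-negative samples, 32 in all, read from the 3′ end. In the second, bone alone was taken after what the labels call IIA injection, and 6 biotin-positive and 6 biotin-negative samples were pooled by hashtag in 1 matrix read from the 5′ end. The labels give no strain, age, genotype, tumour line or number of animals, and no untreated or tumour-free samples, so the biotin-negative fraction of the same tissue is the only control. Nothing in the labels says that the replicates are separate animals, and p-values measure the spread between these samples, which may be partly technical.

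CXCL9 and CXCL10 are chemokines made by macrophages, dendritic cells, endothelium and stromal cells exposed to interferons, and both signal through CXCR3, the receptor on activated T cells, NK cells and plasmacytoid dendritic cells. CXCL16 is made as a membrane protein that can act as a scavenger receptor or be shed by the proteases ADAM10 and ADAM17, and it is the ligand of CXCR6, which marks effector and tissue-resident T cells and part of the innate lymphocytes. Ligand and receptor therefore usually sit on different cells, and the level of each in a mixed sample depends on which cells are in it. Another CXCR3 ligand, Cxcl11, was not analysed here.

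Cxcl9 and Cxcl10 are neighbours on mouse chromosome 5, both on the minus strand. In the GRCm38 annotation Cxcl9 (ENSMUSG00000029417) spans chr5:92321347-92328079 and Cxcl10 (ENSMUSG00000034855) spans chr5:92346638-92348889, with 18558 bases between them. Their upstream sequences are shown because the 2 ligands, although neighbours that share a receptor, sat in partly different cells. The 250 bases upstream of each start site, from RefSeq's GRCm38.p6 annotation and written along the gene's own strand, lie at chr5:92328080-92328329 for Cxcl9 and at chr5:92348890-92349139 for Cxcl10. Capitals mark matches on either strand to an interferon-response core (GAAA, any 2 bases, GAAA) or to the NF-kB motif (GGGRNNYYCC, with R for A or G, Y for C or T and N for any base).
Cxcl9: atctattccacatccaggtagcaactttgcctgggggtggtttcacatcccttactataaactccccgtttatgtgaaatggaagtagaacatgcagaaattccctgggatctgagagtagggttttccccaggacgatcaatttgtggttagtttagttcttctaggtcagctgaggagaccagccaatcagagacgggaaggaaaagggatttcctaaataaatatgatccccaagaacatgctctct
Cxcl10: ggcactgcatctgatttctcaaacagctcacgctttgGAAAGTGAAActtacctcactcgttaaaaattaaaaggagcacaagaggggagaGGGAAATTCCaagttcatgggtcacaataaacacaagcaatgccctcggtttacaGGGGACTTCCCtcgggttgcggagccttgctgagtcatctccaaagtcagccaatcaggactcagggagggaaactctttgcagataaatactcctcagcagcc
The Cxcl10 window holds 1 interferon-response core, at -213 from the start site, and 3 NF-kB matches, at -159, -104 and -103, of which the last 2 overlap. The Cxcl9 window holds no match to either, nor to a GAS motif (TTCNNNGAA), and the same searches found none upstream of Cxcr3 or Cxcr6. A search for exact matches over 250 bases does not show that a gene lacks such elements. Of 32851 promoters searched over the same length, 2.98% held the interferon-response core, 7.25% the NF-kB motif and 7.02% the GAS motif. No upstream sequence was matched for Cxcl16 (ENSMUSG00000018920), which spans chr11:70453983-70459984. Cxcr3 (ENSMUSG00000050232) spans chrX:101731535-101734269, and Cxcr6 (ENSMUSG00000048521) spans chr9:123806475-123811760.

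After filtering, 55366 cells of the intracardiac experiment and 22362 of the IIA experiment remained, with sample totals of 482617 to 44834665 and 2149784 to 27903856 transcript molecules (UMIs). The smallest sample was liver biotin-positive replicate 4, with 94 cells. The tissue labels could be checked in the biotin-positive sort: the microglial gene Tmem119 stood at 27.1 to 260 UMIs per 1000000 UMIs of the sum (CPM) in brain against at most 9.42 in the other positive samples, and the alveolar macrophage gene Ear1 at 320.7 to 937 CPM in lung against at most 27.1. The Kupffer cell gene Clec4f reached 2577 CPM in liver biotin-positive replicate 2 and was at 0 in liver biotin-positive replicate 4. The other 7 samples with replicate number 2 held 19.4 to 52.3 CPM of Clec4f whatever their tissue. Samples with the same replicate number are called a pool here. The sample titles name no pool, and the term is an inference from the barcodes given below. The 7 others held 0 to 0.994 CPM in pool 1, 1.33 to 43.1 in pool 3 and 0 in pool 4, where the liver biotin-positive samples held 76.1, 285 and 0. The source of these low levels was not tested. Samples with the same replicate number shared 0 cell barcodes, and samples with different numbers shared 341 over 384 pairs, at most 7 in any pair.

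Cells were clustered with the 5 genes left out of the clustering, and clusters were called "-like" a cell type from marker lists; 30 of 38 intracardiac clusters and 20 of 26 IIA clusters could be named. Among named classes, levels of Cxcl9 and Cxcl16 were highest in macrophage-like cells, those of Cxcl10 in microglia-like or, in IIA bone, stromal cells, and those of the receptors in T-like, NK-like, innate lymphoid-like and plasmacytoid dendritic clusters. These levels are descriptions, since the classes come from the same cells, and each is given as the mean of CPM over samples with at least 10 cells of the class.

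**Figure D1:**
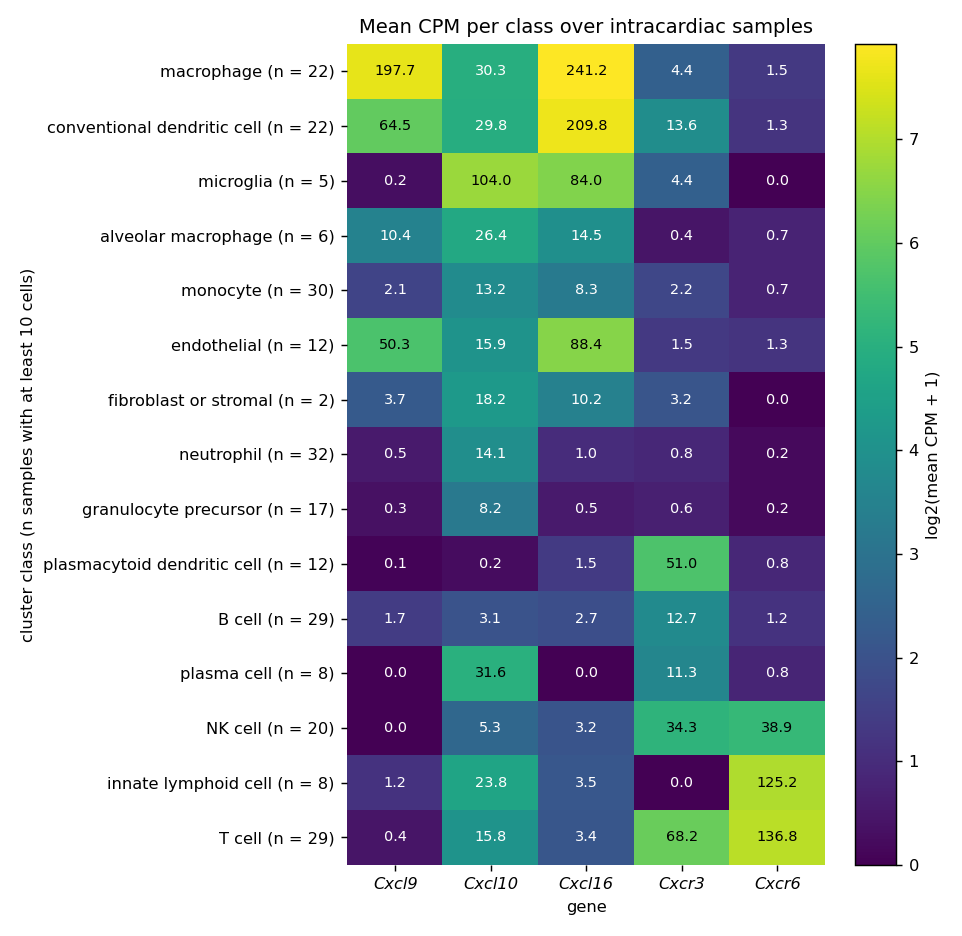
Mean level of each of the 5 genes (CPM, log colour scale, value printed in each box) in the cell classes of the intracardiac experiment, over samples with at least 10 cells of the class. Cxcl9 and Cxcl16 are highest in macrophage-like cells and Cxcl10 in microglia-like cells (104.0); Cxcr6 is highest in T-like cells (136.8) and innate lymphoid-like cells (125), and Cxcr3 in T-like cells (68.2) and plasmacytoid dendritic-like cells (51.0).

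Cxcl16 was spread over many phagocytes: the 10 cells with most of it held 2.79% of its UMIs, against 29.4% for Cxcl9 and 17.4% for Cxcl10. In macrophage-like cells it averaged 241 ± 115 CPM (SD, n = 22 samples), from 19.3 to 537, and in conventional dendritic-like cells 209.8 ± 182 (n = 22). Microglia-like cells averaged 84.0 ± 27.6 CPM (n = 5), alveolar macrophage-like cells 14.5 (n = 6) and monocyte-like cells 8.3 (n = 30). The macrophage-like and dendritic averages do not differ beyond their spread, and neither do the endothelial average, 88.4 ± 76.4 CPM (n = 12), and that of microglia-like cells. In macrophage-like cells 43.7% had at least 1 Cxcl16 UMI, at a median of 3791 UMIs per cell, against 0.603% of neutrophil-like cells, at a median of 4920. Within endothelial-like cells the 4 liver biotin-negative samples held 81.7, 89.3, 198 and 132 CPM of Cxcl16, the 3 liver biotin-positive ones 202, 177 and 107, and the 3 brain samples of either sort with enough cells held 0, 5.37 and 0. All 7 liver samples were above the brain samples. The class joins 2 clusters, one led by Ly6c1 and Cldn5 and one by Clec4g and Gpr182, genes known from liver sinusoidal endothelium. In the samples with at least 10 cells of a cluster, the brain cells were in the first and the liver cells in the second, so tissue and cluster cannot be told apart.

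Cxcl9 was found in few cells and varied widely between samples. Only 509 of 55366 intracardiac cells (0.919%) had a Cxcl9 UMI, and the 100 cells with most held 84.4% of all 5060 UMIs; 1 cell alone held 197. In macrophage-like cells the mean was 198 ± 340 CPM over 22 samples, with a median of 17.4, a lowest value of 0 and a highest of 1017. It was at 0 in macrophage-like cells of all 4 brain biotin-negative samples, yet at 382, 53.1 and 950 CPM in 3 liver biotin-negative samples, so the spread between samples exceeded the mean. In microglia-like cells it was at 0 in 4 samples and at 1.17 CPM in the fifth. In IIA bone, macrophage-like cells averaged 178 ± 162 CPM (n = 12) and stromal-like cells 138 ± 214 (n = 9), and 310 of 22362 cells held all 3364 UMIs.

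Cxcl10 differed from its neighbour in the cells that held it. Its class mean was highest in microglia-like cells, at 104 ± 104 CPM (n = 5), where the 4 brain biotin-positive samples held 17.4, 0, 228 and 76.6 CPM, and it stood at 30.3 ± 38.9 in macrophage-like cells (n = 22) and 29.8 ± 35.9 in dendritic-like cells (n = 22). Plasma cell-like cells stood at 31.6 ± 35.5 (n = 8), from 79 UMIs in 168 cells. The last 3 means lie within each other's spread, and the microglial samples range from 0 to 228. Neutrophil-like cells averaged 14.1 ± 24.3 CPM (n = 32), of which 1 cluster led by Ccrl2, Ptgs2 and Il1b held 677 of the 7659 Cxcl10 UMIs, 70.9% of them in 10 cells. In IIA bone the stromal-like cluster had the highest mean, 154 ± 80.7 CPM (n = 9), ahead of macrophage-like cells at 69.2 ± 64.7 (n = 12), and the ranges over samples, 43.8 to 294 and 0 to 221 CPM, overlap.

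The cluster that held most ligand UMIs in the intracardiac experiment could not be named. Its leading genes included Pf4, Spp1, Ppbp, Ccl2 and Ccl7, a mixture of genes known from macrophages and from platelets, and 67.4% of its 1763 cells were biotin positive. In lung its Cxcl10 averaged 284 ± 118 CPM in the negative samples (n = 4), above the microglia-like mean. It held 2579 of 5060 Cxcl9 UMIs (51.0%), 2594 of 7659 Cxcl10 UMIs (33.9%) and 3290 of 9751 Cxcl16 UMIs (33.7%) in 3.18% of the cells. In lung it made up 10.1 ± 4.99% of biotin-positive and 1.98 ± 0.869% of biotin-negative cells (SD, n = 4 each). Cxcl16 in the cluster stood at 215, 239.5, 211 and 116 CPM in the 4 lung biotin-positive samples and at 198, 132, 111 and 40.5 CPM in the 4 biotin-negative ones; the ranges overlap, and the positive sample was the higher in each of the 4 pools. In liver the cluster held 176, 176 and 44.8 CPM in biotin-positive replicates 1 to 3 and 113, 38.2, 34.9 and 7.07 in the 4 negative samples, again higher in the positive sample of each of the 3 shared pools. These differences were not tested. Within it, 92.1% of the 114 cells with a Cxcl9 UMI also had a Cxcl16 UMI, against 41.8% of those without, at median depths of 13442.5 and 9015 UMIs per cell. The corresponding IIA cluster, with Pf4 and Hmox1 among its leading genes, passed the macrophage list and held 2194 of 3364 Cxcl9 UMIs, 668 of 1921 Cxcl10 UMIs and 1339 of 1500 Cxcl16 UMIs. There 71.4% of Cxcl9-positive cells had Cxcl16, against 34.7% of the others, at median depths of 6617 and 4417.5.

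Cxcr6 was found mainly in T-like cells, with a like level in innate lymphoid-like cells. T-like cells held 82.9% of its 2960 intracardiac UMIs and averaged 137 ± 69.3 CPM (n = 29), with the lowest sample at 34.7 and the highest at 368, and innate lymphoid-like cells, which had no Cxcr3 UMI, averaged 125 ± 55.1 (n = 8). These 2 averages lie within their spread. A Cxcr6 UMI was found in 23.9% of T-like cells, at a median of 3193.5 UMIs per cell, and in 0.115% of neutrophil-like cells, at a median of 4920. In IIA bone, T-like cells held 92.3% of the 364 Cxcr6 UMIs and averaged 118 ± 56.3 CPM (n = 7).

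Cxcr3 was spread more widely. T-like cells held 46.6% of its 2157 UMIs and averaged 68.2 ± 35.4 CPM (n = 29), plasmacytoid dendritic-like cells 51.0 ± 26.2 (n = 12) and NK-like cells 34.3 ± 28.8 (n = 20). Neighbours in that order do not differ beyond their spread. A Cxcr3 UMI was found in 25.7% of plasmacytoid dendritic-like cells, 15.5% of T-like cells and 8.73% of NK-like cells, against 0.356% of neutrophil-like cells, at median depths of 5841, 3193.5, 2704.5 and 4920 UMIs. Conventional dendritic-like cells had one in 8.95% and plasma cell-like cells in 7.94%, at the greater median depths of 8335 and 14023.5 UMIs. In IIA bone plasmacytoid dendritic-like cells held 16.1% of the 292 UMIs and averaged 23.6 ± 7.95 CPM (n = 6), with a highest sample of 39.1, while the lowest T-like sample held 59.9.

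The T-like clusters differed in their receptor levels. The cluster led by Icos, Ctla4 and Tnfrsf4 (activation and regulatory genes) averaged 289 ± 113 CPM of Cxcr6 in lung, 363 ± 122 in liver, 310.9 ± 293 in brain and 232 ± 49.9 in bone (biotin negative, n = 4 each). The cluster led by Gzmk, Ccl5 and Cd8b1 (cytotoxic genes) averaged 85.2 ± 17.6, 147 ± 34.2, 120 ± 53.6 and 79.3 ± 49.8 CPM in the same order. The cluster led by Lef1, Dapl1 and Tcf7, genes of naive T cells, averaged 8.91 ± 12.5 CPM in lung (n = 4), 6.32 ± 1.55 in liver (n = 2), 1.79 ± 3.58 in brain (n = 4) and 32.2 ± 17.2 in bone (n = 2), below the other 2 clusters in each tissue. For Cxcr3 the first cluster averaged 65.6 ± 28.2 CPM in lung, 34.3 ± 24.2 in liver, 58.4 ± 33.4 in brain and 124 ± 64.9 in bone, and the cytotoxic cluster 56.3 ± 40.8, 103.7 ± 46.8, 117.8 ± 39.6 and 104.2 ± 36.7. The cytotoxic cluster was higher by more than either SD in liver and brain, and the 2 lay within their spread in lung and bone. The naive cluster averaged 6.76 ± 7.02 in lung and was at 0 in brain. Among T-like cells 722 had a Cxcr3 UMI, 1114 a Cxcr6 UMI and 223 both: 30.9% of the Cxcr3-positive cells had Cxcr6, against 22.6% of the others, at median depths of 3535 and 3152.5.

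T-like cells were also gated on their Cd4 and Cd8 transcripts. In lung biotin-negative samples Cd4 cells averaged 115 ± 58.3 CPM of Cxcr6 and Cd8 cells 65.6 ± 46.0 (n = 4 each). The lung ranges overlap, 43.4 to 184 and 0 to 97.7 CPM. In bone biotin-negative samples Cd8 cells averaged 72.7 ± 19.7 (n = 4), and the 2 samples with enough Cd4 cells held 147.7 and 24.6, on either side of the Cd8 range. In NK-like cells Cxcr6 differed between liver and lung: the liver biotin-negative samples held 46.8, 59.5, 330 and 38.3 CPM and the lung ones 0, 0, 6.23 and 0, with bone at 0 to 48.4 and brain at 0 to 61.1. Every liver sample was above every lung sample, liver overlapped with bone and brain, and liver replicate 3 stood far above the other 3. No test of this comparison was made.

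Between tissues, the biotin-negative samples were compared over all their cells; in such sums fewer cells of a type and less RNA per cell cannot be told apart. Bone was low in Cxcl16: its 4 samples held 2.60, 2.69, 1.94 and 0.335 CPM, against 8.37, 21.7, 23.4 and 5.95 in liver, 18.6, 20.5, 16.3 and 8.96 in lung, and 3.54, 31.8, 30.5 and 3.73 in brain. Every bone sample was below every sample of the other tissues. Summed macrophage markers had a median of 550 CPM in these bone samples (167 to 780). Lung had 1880, brain 2389 and liver 2418. For conventional dendritic markers the bone median was 721 CPM (472 to 1920), against 2885, 2935 and 3630 in that order. Bone overlapped with brain and liver in the macrophage sums, and with lung and brain in the dendritic ones. The part of these cells in the low Cxcl16 of bone was not tested. The Cxcl16 difference over the 4 tissues passed edgeR's quasi-likelihood F test (Benjamini-Hochberg adjusted p = 0.0476), as did that of Cxcl9 (adjusted p = 0.0212). In that comparison 11.8% of all genes tested passed. Cxcl16 was higher in liver than in bone by 2.80 ± 0.75 log2 units (SE; adjusted p = 0.0377, with 8.09% of genes passing) and higher in lung than in bone by 3.02 ± 0.76 (adjusted p = 0.012, with 25.6% passing). Without any 1 of 13 of the 16 samples (each bone, liver and lung sample, and brain replicate 3) Cxcl16 did not pass over the 4 tissues, at adjusted p of 0.0531 to 0.135. Leaving out bone replicate 3 did the same for Cxcl9 (adjusted p = 0.0531), and 5 samples (bone replicates 2, 3 and 4, liver replicates 2 and 3) did so for Cxcl16 between liver and bone, at 2.47 to 3.14 log2 units and adjusted p of 0.0691 to 0.108.

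Cxcl9 was nearly absent from the brain biotin-negative samples, at 0.101, 0.659, 0.378 and 0 CPM, and stood at 5.70, 3.55, 28.2 and 4.85 CPM in liver and 6.395, 10.7, 1.25 and 5.67 in lung. Bone held 4.07, 0.112, 0.838 and 0.335 CPM, which overlaps with brain, so low Cxcl9 was not particular to brain. No pair of tissues passed for Cxcl9. In the other 4 pairs few genes passed at all: 0.0229% between brain and bone, 0.0611% between liver and brain, 1.09% between lung and brain and 0.0535% between lung and liver. Cxcr6 held 29.6, 3.91, 29.8 and 30.4 CPM in lung and 10.9, 1.38, 0.990 and 0.558 in bone, where replicate 1 overlapped with lung. Cxcr6 was higher in lung than in bone by 2.86 ± 0.84 log2 units (adjusted p = 0.0238), and leaving out bone replicate 2, 3 or 4 or lung replicate 1 gave 2.52 to 2.72 with adjusted p of 0.0538 to 0.0727. T-like cells made up 20.0 ± 10.2% of lung and 5.69 ± 4.66% of bone biotin-negative cells. Within T-like cells neither receptor differed over the tissues past the threshold (adjusted p = 0.971 for Cxcr6 and 1.00 for Cxcr3), in a comparison where 0.151% of genes passed. Over the 4 tissues the test for Cxcr6 in all cells gave adjusted p = 0.119, and Cxcr3 (0.474) and Cxcl10 (0.351) did not pass either; without bone replicate 1, in which both genes were highest in that group, Cxcr6 gave 0.0142 and Cxcl10 0.0455.

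**Figure D2:**
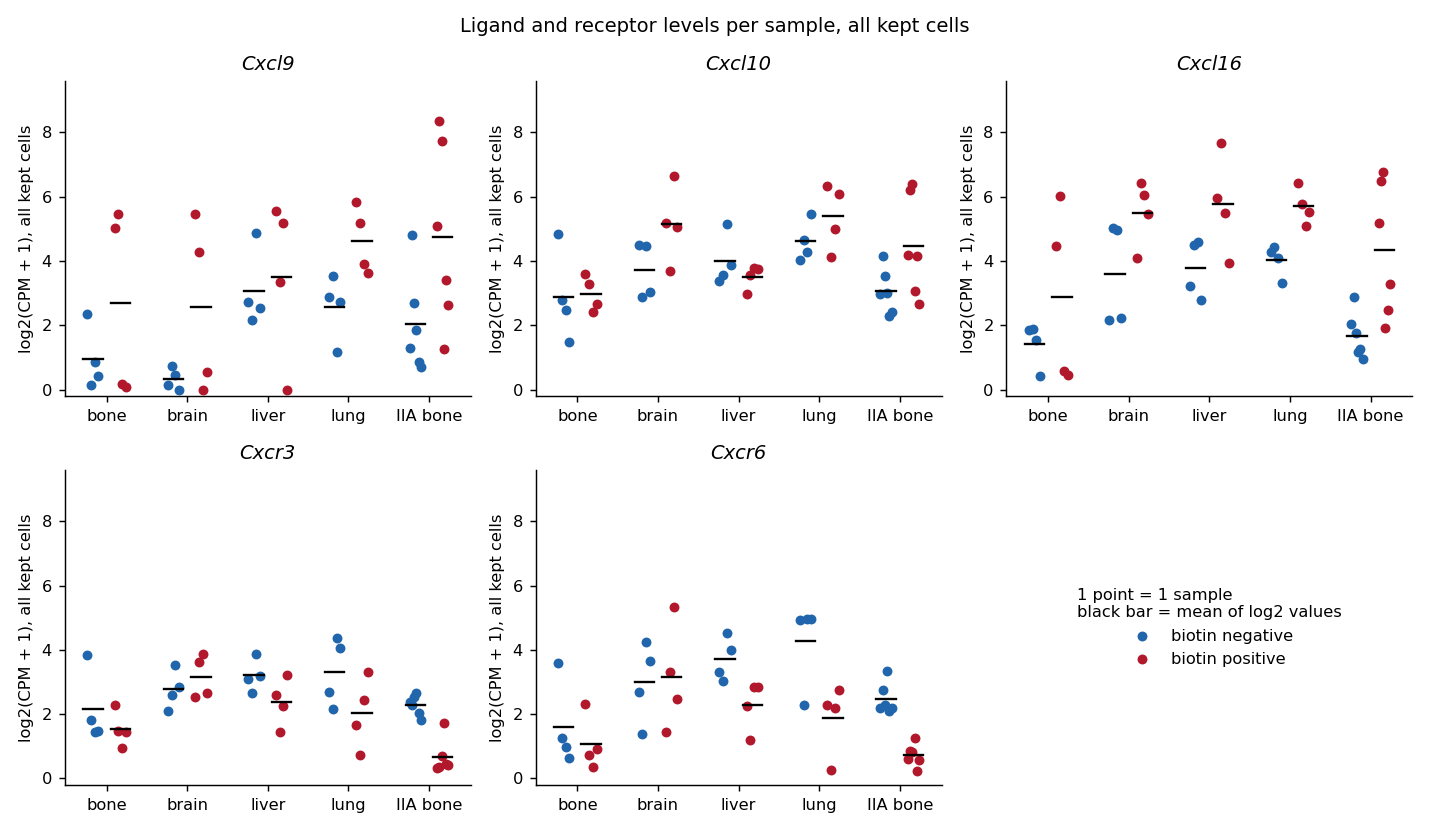
Level of each of the 5 genes in the sum of all cells of a sample, as log2(CPM + 1), with 1 point per sample and a bar at the mean of the log2 values; biotin-negative in blue and biotin-positive in red, for the 4 intracardiac tissues and IIA bone. Ligand points of the positive sort lie higher and receptor points lower in lung and IIA bone, with overlap in most groups.

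The biotin sort was compared next, tissue by tissue, over all kept cells. The question is whether the labelled niche holds more or less of each ligand and receptor than the unlabelled cells of the same tissue. In lung, Cxcl16 rose and Cxcr6 fell. The 4 lung biotin-positive samples held 86.1, 53.8, 33.4 and 45.2 CPM of Cxcl16 and the 4 negative ones 18.6, 20.5, 16.3 and 8.96, and the groups do not overlap. The difference was 1.48 ± 0.32 log2 units (edgeR quasi-likelihood, SE; adjusted p = 0.016), a 2.80-fold rise, in a comparison where 18.3% of 12331 genes passed, 11.5% of them as higher and 6.80% as lower. Cxcr6 stood at 3.86, 0.210, 3.53 and 5.67 CPM in the positive and 29.6, 3.91, 29.8 and 30.4 CPM in the negative samples, a fall of 3.09 ± 0.86 log2 units (adjusted p = 0.0375). Lung biotin-negative replicate 2, at 3.91, lies inside the positive range, and leaving out negative replicate 1, 3 or 4 or positive replicate 1 or 3 gave -3.19 to -2.85 with adjusted p of 0.0763 to 0.0937.

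The other 3 genes did not pass in lung by this fit. Cxcl9 held 55.7, 35.8, 14.0 and 11.3 CPM in the positive and 6.395, 10.7, 1.25 and 5.67 in the negative samples, so the groups do not overlap, with a difference of 1.91 ± 0.66 (adjusted p = 0.0746); leaving out negative replicate 2 gave 2.44 (adjusted p = 0.0437), and the fit blocked by replicate number gave 1.99 (adjusted p = 0.037). Cxcr3 held 2.17, 0.673, 4.41 and 8.85 CPM against 5.44, 3.48, 19.5 and 15.5, a difference of -1.72 ± 0.79 (adjusted p = 0.156), which the block moved to -1.85 (adjusted p = 0.0137). Cxcl10 differed by 0.65 ± 0.53 (adjusted p = 0.413). Beside these, T-like cells made up 3.05 ± 2.81% of lung biotin-positive and 20.0 ± 10.2% of biotin-negative cells, and the summed level of the whole T cell marker list ranged from 69.2 to 357 CPM in the positive samples and from 389 to 1864 in the negative ones. Phagocyte-like clusters other than monocytes made up 44.5 ± 26.9% and 0.516 ± 0.483%.

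In liver the same 2 genes had the largest differences among the 5, and none passed. Cxcl16 held 62.0, 205, 44.4 and 14.5 CPM in the biotin-positive and 8.37, 21.7, 23.4 and 5.95 in the negative samples; only positive replicate 4, with 94 cells, overlaps. The difference was 2.24 ± 0.68 log2 units (adjusted p = 0.228), and that of Cxcr6 was -1.997 ± 0.58 (adjusted p = 0.221). Cxcr6 stood at 3.77, 1.28, 6.19 and 6.22 CPM against 8.88, 7.09, 21.8 and 15.03, and these groups do not overlap. In liver 0 of 11854 genes passed by edgeR (0%), with 1571 at an unadjusted p under 0.05, and 431 passed by DESeq2, among them Cxcl16 at 2.23 (adjusted p = 0.0348) and Cxcr6 at -1.94 (adjusted p = 0.0419). Cxcl9 differed by 1.03 ± 0.84, Cxcl10 by -0.92 ± 0.45 and Cxcr3 by -1.32 ± 0.50, with adjusted p of 0.629, 0.417 and 0.316. The share of T-like cells was 2.03 ± 0.936% in the positive and 7.29 ± 0.954% in the negative sort.

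In intracardiac bone the samples of the positive sort disagreed with each other. Cxcl9 held 31.7, 43.4, 0.140 and 0.0730 CPM in the 4 positive and 4.07, 0.112, 0.838 and 0.335 in the 4 negative samples, and Cxcl16 held 21.2, 63.6, 0.491 and 0.365 against 2.60, 2.69, 1.94 and 0.335. Positive replicates 1 and 2 were high in both ligands, and replicates 3 and 4 were inside or below the negative range. The differences, 3.76 ± 1.60 and 3.26 ± 1.35 log2 units, did not pass (adjusted p = 0.615 for both), nor did those of Cxcl10, Cxcr3 and Cxcr6, -0.41 ± 0.63, -1.18 ± 0.65 and -1.14 ± 0.97. No gene of 12533 passed by edgeR (0%), with 983 at an unadjusted p under 0.05; DESeq2 called 53 and the fit with the replicate block 12. Phagocyte-like cells other than monocytes made up 1.27% to 33.4% of the positive samples.

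In brain none of the 5 genes passed, and the receptor differences lay near 0. Cxcr3 held 4.77, 11.2, 13.6 and 5.25 CPM in the positive and 3.29, 5.01, 10.6 and 6.24 in the negative samples, a difference of 0.11 ± 0.46, and Cxcr6 differed by 0.13 ± 0.95, or by -0.14 with the replicate block. T-like cells made up 9.79 ± 12.4% and 9.54 ± 3.83% of the cells. Cxcl10 held 35.3, 11.8, 100 and 32.6 CPM against 21.7, 6.46, 21.4 and 7.15, and was higher in the positive sample of the same pool in all 4 pools; the difference was 1.42 ± 0.62 (adjusted p = 0.231), in a comparison where 3.06% of genes passed. Cxcl16 held 16.04, 85.9, 65.5 and 42.9 CPM against 3.54, 31.8, 30.5 and 3.73, with a difference of 1.305 ± 0.80 (adjusted p = 0.385), or 1.74 with the block (adjusted p = 0.0453, and 762 genes called against 339 without it). Cxcl9 did not pass the low-count filter and held 43.1, 18.7, 0 and 0.457 CPM in the positive samples, against at most 0.659 in the negative ones. The 2 higher values rest on few cells. The 199 UMIs of positive replicate 1 lay in 0.362% of its 552 cells, and the 60 UMIs of positive replicate 2 in 1.19% of its 675 cells.

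The biotin differences of the 5 genes were not shown to differ between the 4 tissues. The interaction test gave adjusted p of 0.489 for Cxcl9, 0.434 for Cxcl10, 0.790 for Cxcl16, 0.698 for Cxcr3 and 0.553 for Cxcr6, where 1.15% of 13963 genes passed.

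**Figure D3:**
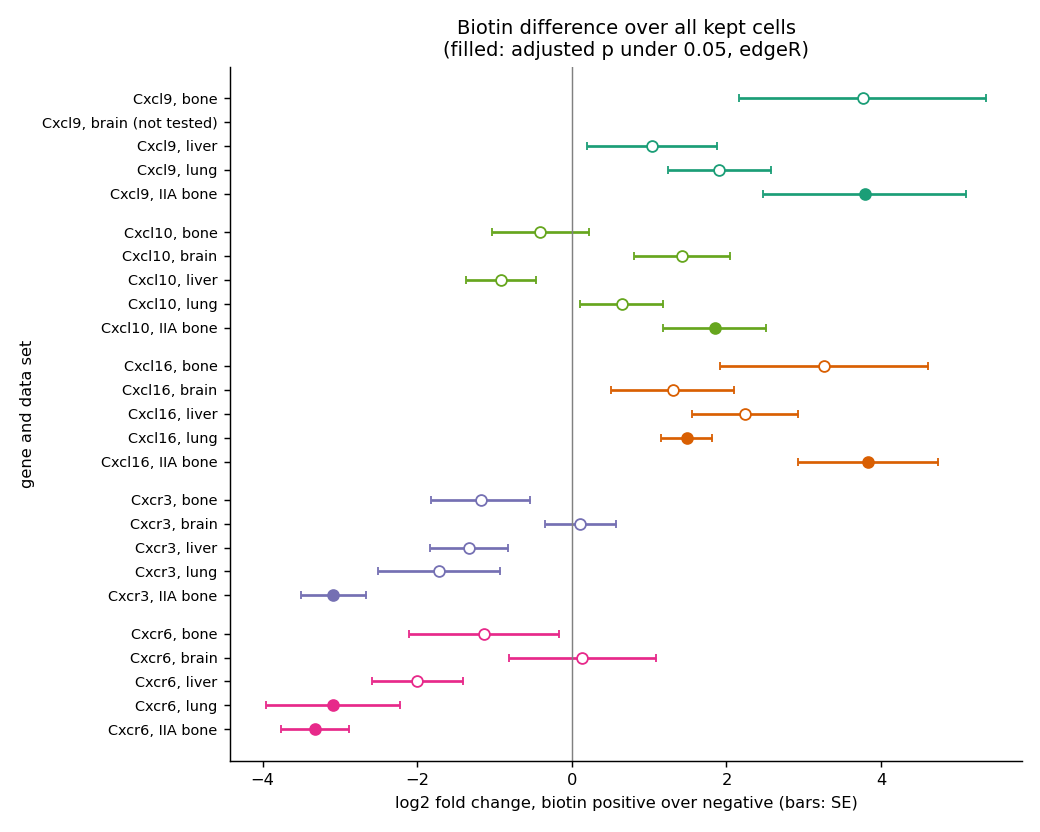
Difference between biotin-positive and biotin-negative samples in log2 units (edgeR, all kept cells; bars are ± 1 SE; filled points have an adjusted p under 0.05) for the 5 genes in the 4 intracardiac tissues and IIA bone; Cxcl9 in brain was not fitted and has no point. The other ligand values lie to the right of 0 except Cxcl10 in bone and liver (-0.41 and -0.92), and the receptors lie to the left except in brain, where both lie just to the right (0.11 and 0.13).

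In IIA bone all 5 genes passed: the 3 ligands rose and both receptors fell in the biotin-positive sort. Cxcl16 had a lowest value of 2.79, a median of 22.0 and a highest of 107 CPM in the 6 positive samples, and 0.943, 1.87 and 6.43 CPM in the 6 negative ones. Positive replicates 4 and 5, at 2.79 and 4.62, lie inside the negative range, and the other 4 lie above it. The difference was 3.83 ± 0.91 log2 units (edgeR quasi-likelihood; adjusted p = 0.00406), in a comparison where 50.2% of 12625 genes passed, 27.0% as higher and 23.2% as lower, so that passing is common there. Cxcl9 ranged from 1.40 to 326 CPM, with a median of 21.3, in the positive samples and from 0.649 to 27.4, with a median of 2.02, in the negative ones, a difference of 3.79 ± 1.31 (adjusted p = 0.0298). Cxcl10 ranged from 5.38 to 84.2 and from 3.95 to 16.7 CPM, a difference of 1.85 ± 0.66 (adjusted p = 0.035). Both these groups overlap, and for both genes leaving out any negative replicate but 2, or positive replicate 2 or 3, took the call away, at 2.89 to 3.75 and adjusted p of 0.0525 to 0.0655 for Cxcl9 and 1.34 to 1.93 and 0.0519 to 0.0962 for Cxcl10.

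The receptors in IIA bone separated the sorts completely. Cxcr3 held 0.261, 0.274, 0.618, 2.33, 0.358 and 0.336 CPM in the positive samples and 4.22, 3.88, 4.73, 5.29, 3.11 and 2.54 in the negative ones, a fall of 3.08 ± 0.42 log2 units (adjusted p = 0.000112). Cxcr6 held 0.521, 0.821, 0.772, 1.40, 0.179 and 0.505 CPM against 3.60, 5.76, 3.86, 9.16, 3.32 and 3.60, a fall of 3.32 ± 0.44 (adjusted p = 8.57e-05). No positive sample reached the lowest negative one for either receptor. T-like cells were 1.41 ± 0.976% of the positive and 5.55 ± 1.29% of the negative samples, and the summed T cell markers ranged from 14.98 to 113 and from 144 to 249 CPM. The summed NK cell markers ranged from 174 to 834 CPM (median 619) in the positive and from 176 to 361 (median 219) in the negative samples, and the summed neutrophil markers from 40528 to 92319 and from 214893 to 260773. The summed macrophage markers ranged from 344 to 4629 CPM in the positive and from 102 to 287 in the negative samples. Stromal-like cells, the class with the highest Cxcl10 mean there, were 2.90 ± 2.31% of the positive and 0.421 ± 0.0664% of the negative samples, and the summed stromal markers ranged from 32.3 to 3767 and from 45.2 to 208 CPM. The part of these cell types in the differences was not tested. The intracardiac and IIA bone samples differ in injection, chemistry and pooling, and their biotin differences were not tested against each other.

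The ligands were then compared within mononuclear phagocyte-like cells, the union of the macrophage-like, alveolar, microglia-like and monocyte-like clusters; the unnamed cluster with Pf4 and Spp1 is not among them. Cxcl16 passed in liver and IIA bone. The 3 liver biotin-positive samples with enough cells held 90.4, 225 and 156 CPM and the 4 negative ones 4.99, 23.6, 28.8 and 19.0, with no overlap and a difference of 2.79 ± 0.54 log2 units (edgeR quasi-likelihood; adjusted p = 0.0352), where 5.29% of 9923 genes passed. In 6 of the 7 leave-one-out fits, all but that without positive replicate 1, the difference was 2.39 to 3.13 with adjusted p of 0.057 to 0.125. In IIA bone the positive samples held 249.9, 151, 280, 42.5, 151 and 161 CPM and the negative ones 17.7, 25.1, 13.5, 5.96, 6.46 and 6.87, again with no overlap, a 15.8-fold rise (3.98 ± 0.40; adjusted p = 4.35e-06), where 28.9% of 9518 genes passed. In bone Cxcl16 held 40.7, 183, 8.72 and 24.3 CPM against 1.58, 8.62, 17.7 and 2.40, a difference of 3.24 ± 0.79 (adjusted p = 0.0734, where 1.40% of genes passed), or 3.53 leaving out positive replicate 3 (adjusted p = 0.0398) and 3.25 in the blocked fit (adjusted p = 0.0421). In brain it differed by 0.82 ± 0.57 and in lung by -0.11 ± 0.34.

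The comparison was repeated without the monocyte clusters. The liver difference in Cxcl16 was -0.01 log2 units: positive samples held 217, 228 and 209 CPM and negative ones 154, 217 and 285. Only 1 bone negative sample had at least 10 such cells, so bone gives no comparison. In brain the difference was -1.61 (adjusted p = 0.113), where the positive samples held 80.5, 71.9, 146 and 89.0 CPM and the negative ones 125, 343, 325 and 229. In IIA bone the difference fell to 1.88 ± 0.36 and still passed (adjusted p = 0.00217): positive samples held 300.5, 152, 292, 54.2, 204 and 333 CPM and negative ones 83.6, 77.2, 60.0, 60.2, 25.7 and 65.5, and only positive replicate 4, with 20 such cells, lay inside the negative range. Phagocytes other than monocytes were 26.7 ± 36.8% of liver biotin-positive and 1.22 ± 1.03% of negative cells, and 20.0 ± 19.5% and 2.36 ± 1.42% in IIA bone. In lung the non-monocyte phagocytes of the positive samples were mostly alveolar macrophage-like and held 13.9 to 45.2 CPM of Cxcl16, against 114 and 462 in the 2 negative samples with enough of them, at 31 and 12 cells.

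**Figure D4:**
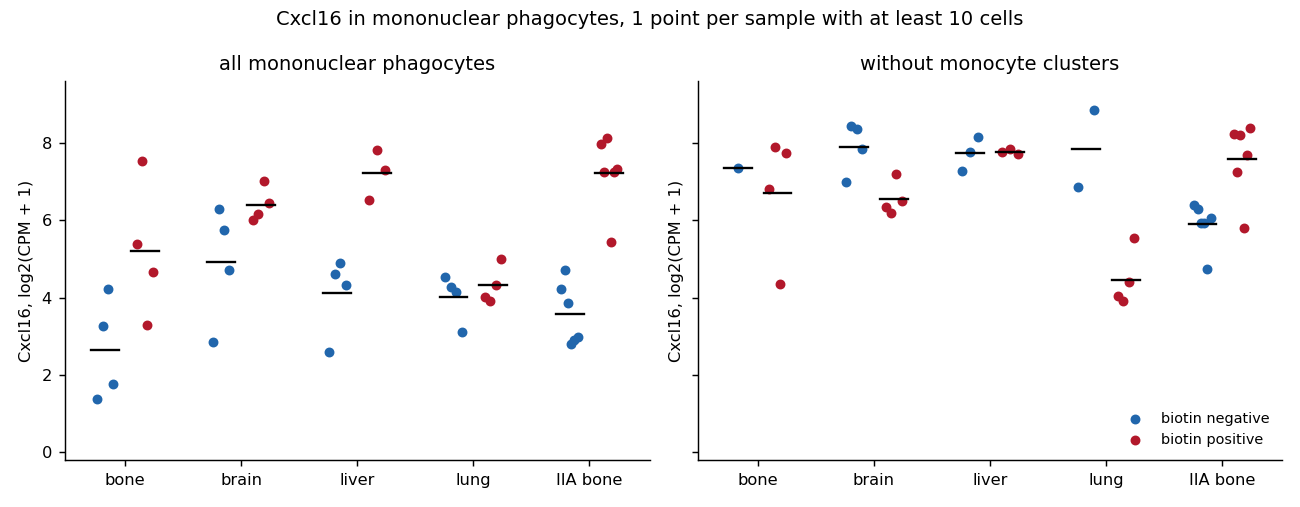
Cxcl16 level as log2(CPM + 1) in mononuclear phagocyte-like cells, 1 point per sample with at least 10 cells and a bar at the mean of the log2 values, with all such cells in the left panel and without the monocyte clusters in the right. In liver the groups separate on the left and lie at the same level on the right (154 to 285 CPM negative, 209 to 228 positive); in IIA bone they separate on the left, and on the right all but positive replicate 4 lie above the negative samples.

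The CXCR3 ligands passed in phagocyte-like cells of IIA bone. Cxcl9 held 248, 412, 391, 0, 144 and 89.6 CPM in the positive and 3.54, 111, 31.2, 8.35, 1.39 and 0 in the negative samples, a difference of 3.27 ± 0.88 (adjusted p = 0.0111). Positive replicate 4, with 28 phagocyte-like cells, had none. Cxcl10 held 62.5, 107, 101, 0, 91.5 and 18.5 CPM against 4.24, 42.1, 46.3, 4.77, 15.7 and 2.29, a difference of 2.19 ± 0.59 (adjusted p = 0.0114). Without the monocyte clusters neither passed, at 1.26 and 0.39 log2 units (adjusted p = 0.30 and 0.692), and by DESeq2 neither passed (adjusted p = 0.0596 and 0.108). In lung Cxcl9 held 5.79, 15.1, 22.8 and 19.5 CPM against 1.11, 0.296, 2.58 and 11.4, a difference of 1.65 ± 0.73 (adjusted p = 0.0874, where 46.9% of genes passed), or 3.04 without negative replicate 4 (adjusted p = 0.00582) and 2.12 in the blocked fit (adjusted p = 0.0108). Without the monocyte clusters the lung difference turned to -3.61 (adjusted p = 0.396), with 2 negative samples left, at 0 and 876 CPM in 31 and 12 cells. In brain Cxcl10 held 54.8, 11.6, 184 and 63.3 CPM against 27.8, 18.9, 22.9 and 13.1, a difference of 1.55 ± 0.64 (adjusted p = 0.0837, where 37.0% passed), or 1.95 without positive replicate 2 (adjusted p = 0.0102) and 1.65 by DESeq2 (adjusted p = 0.0281). Without the monocyte clusters the brain difference was -0.0054 (adjusted p = 1.00), and 9 genes passed in place of 3441. Phagocytes other than monocytes were 54.4 ± 22.0% of brain biotin-positive and 4.60 ± 3.49% of negative cells. No CXCR3 ligand passed in bone or liver phagocytes, where Cxcl9 differed by 3.86 ± 1.22 and 0.64 ± 1.11. The liver difference has no stable direction: it ranged from -1.11 to 2.98 with 1 replicate left out and was -2.50 without the monocyte clusters.

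Within T-like cells the receptors did not differ between the sorts past the threshold in any tissue, in comparisons where 0% of genes passed. In bone Cxcr6 held 94.4, 80.7, 92.7 and 84.9 CPM in the positive and 121, 56.5, 65.4 and 93.2 CPM in the negative samples, a difference of 0.02 ± 0.29 log2 units. In lung it held 175, 123 and 154 CPM (3 positive samples with at least 10 T-like cells) against 108, 68.8, 162 and 233, a difference of 0.07 ± 0.35, beside the difference of -3.09 over all lung cells. Brain gave 0.32 ± 0.42 and liver -0.50 ± 0.53 (2 positive samples against 4). For Cxcr3 the differences were 0.44 ± 0.62 in lung, 0.13 ± 0.33 in brain, 0.00 ± 0.44 in bone and -0.28 ± 0.79 in liver. All adjusted p were 0.934 or more by edgeR, which does not show that the sorts are alike. At an unadjusted p under 0.05 there were 86 genes for bone and 118 for brain, where DESeq2 called 0, 257 for liver, where it called 9, and 208 for lung, where it called 0. In IIA bone only positive replicate 5 had at least 10 T-like cells, 15 of them, with 78.4 CPM of Cxcr3 and 47.1 CPM of Cxcr6, against 59.9 to 102 and 67.5 to 196 in the 6 negative samples, and no test was made.

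**Figure D5:**
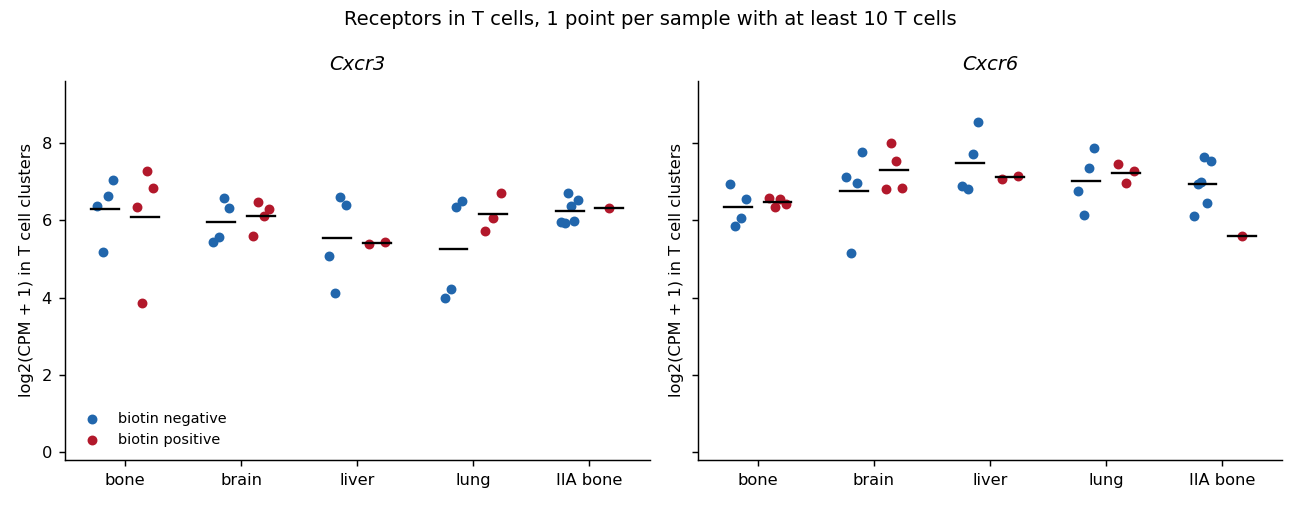
Cxcr3 (left) and Cxcr6 (right) in T-like cells as log2(CPM + 1), 1 point per sample with at least 10 T-like cells and a bar at the mean of the log2 values. Biotin-positive and biotin-negative points overlap for both receptors in bone, brain and lung; in liver there are 2 positive samples and in IIA bone 1.

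Shares of cells with a UMI, after thinning every cell to 1000 UMIs, were compared with a test that needs no count model. In liver 13.4 ± 5.12% of phagocyte-like cells of the positive samples (n = 3) and 2.19 ± 1.53% of the negative ones (n = 4) had a Cxcl16 UMI (two-sided exact permutation test, p = 0.0571, adjusted p = 0.686 over 12 comparisons), and all 3 positive samples were above all 4 negative ones; unthinned, the shares were 36.8 ± 23.1% and 7.14 ± 3.53%. Neutrophil-like cells, which should lack the gene, were at 0.0723 ± 0.145% and 0.246 ± 0.379% in the same tissue. The Cxcr6 share of T-like cells in lung was 13.5 ± 3.25% in the positive and 11.5 ± 6.14% in the negative samples (exact permutation p = 0.629). No exact p below 0.0571 can arise from groups of 3 and 4, so the liver comparison could not pass whatever its values. None of the 12 passed after adjustment. With at most 4 samples per group, the others could pass only if many at once reached their lowest possible p. No conclusion is drawn from this outcome.

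Genes around the 2 axes were followed through lists chosen for their roles, of which Cxcl11 and Znf683 were not analysed here. In lung, where 11.5% of all genes rose and 6.80% fell over all cells, 3 of 5 genes known to shed, sort or share scavenger functions with CXCL16 rose: the sheddase Adam17 (0.67 ± 0.15 log2 units, adjusted p = 0.0192), Sort1 (2.22 ± 0.39, adjusted p = 0.00672) and the scavenger receptor Cd36 (3.37 ± 0.55, adjusted p = 0.00531); the median of the 5 was 0.67 beside -0.04 over all genes. Of 10 tissue residency and effector genes 6 fell, among them Gzmb (granzyme B, -3.36 ± 0.85) and Icos (-3.31 ± 0.69), and Itga1, an integrin that other cells also express, rose by 1.82 ± 0.35. Of 7 naive T cell genes 4 fell (Ccr7, Lef1, Tcf7 and Il7r, by 1.88 to 3.75), with a list median of -1.88, and the transcription factor Tbx21 fell by 3.46 ± 0.90. Of 12 interferon gamma genes 4 fell (Ifngr1, Jak1, Jak2 and Socs1) and 1 rose, the checkpoint ligand Cd274 (1.28 ± 0.21, adjusted p = 0.00581). In bone, brain and liver no gene of these lists passed over all cells by edgeR, where 0%, 3.06% and 0% of all genes passed. In bone and liver this therefore says nothing about the lists. The T cell genes of lung fell beside the lower share of T-like cells in its biotin-positive sort, whose part was not tested.

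In IIA bone, where 27.0% of all genes rose and 23.2% fell over all cells, 5 of 6 further CXCR3 pathway genes fell (Dpp4, the protease that trims CXCR3 ligands, by 2.82 ± 0.33, and Ccl5, Tbx21, Arrb2 and Gnai2), with a median of -2.06 beside 0.08 over all genes. The naive T cell genes Lef1, Tcf7 and Klf2 fell, and Cd36 rose by 3.79 ± 0.98 (adjusted p = 0.00675). Of 9 residency genes 3 rose and 3 fell, and of 11 interferon gamma genes Ifngr1 rose and 4 fell. Within phagocyte-like cells of IIA bone 28.9% of all genes passed, and 3 of 11 interferon gamma genes did, a like share, all of them higher: the feedback inhibitor Socs1 (1.69), Cd274 (1.78) and the interferon-induced GTPase Iigp1 (4.53), with a median of 0.09 beside -0.01 over all genes. There 3 of 5 CXCL16 handling genes rose: Adam17, Cd36 (3.92) and the scavenger receptor Msr1 (1.56). In lung phagocyte-like cells, where 46.9% of all genes passed, 1 of 9 interferon gamma genes rose (Cd274, 2.16) and 3 fell (Ifngr1, Ifngr2 and Jak2), and of the 5 handling genes Sort1 (1.95) and Cd36 (2.73) rose while Msr1 fell by 2.16. Without the monocyte clusters 26 genes passed in lung in place of 4628, and 1079 in IIA bone in place of 2755. Phagocytes other than monocytes were 44.5 ± 26.9% of lung biotin-positive and 0.516 ± 0.483% of negative cells, so the class is made up of different clusters in the 2 sorts. In liver phagocyte-like cells, where 5.29% of all genes passed, 1 of 10 interferon gamma genes rose (Iigp1, 4.32), 1 of 5 handling genes rose (Cd36, 2.74) and 1 of 5 residency genes fell (Itga1, by 1.87). The 525 genes that passed there became 0 without the monocyte clusters, 0 without negative replicate 1, 3 or 4, 13 without negative replicate 2, 1 and 4 without positive replicates 2 and 3, and 2733 without positive replicate 1.

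The genes whose levels ran most closely with each of the 5 were found over 35 combinations of class and tissue in biotin-negative intracardiac samples (12 classes, 122 sample sums, 11915 genes). Pearson's r is given as a description; the points share libraries and depth. For Cxcl16 they were Dab2 (0.96), Sult1a1 (0.95) and Cttnbp2nl (0.94), for Cxcr6 Podnl1 (0.97), Acsbg1 (0.96) and Bcl11b (0.96), and for Cxcr3 Ifi47 (0.88), Bbc3 (0.87) and Klhdc1 (0.87). For Cxcl9 they were Procr (0.93), Fgb (0.91) and Gm14221 (0.91), and for Cxcl10 Dusp8 (0.63), Cdkn1a (0.60) and Jag1 (0.59), a weaker likeness than for any of the other 4. Among the 5 themselves r was 0.70 between Cxcl9 and Cxcl16, 0.55 between Cxcr3 and Cxcr6 and 0.19 between the neighbours Cxcl9 and Cxcl10.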

How the data were processed

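The deposited matrices hold UMI counts per gene and cell, which the authors made with Cell Ranger on mm10 and handled in Seurat, per the submitters' processing notes; the sources used here give no versions. From these counts, cells with at least 500 UMIs, 200 genes and at most 15% mitochondrial UMIs were kept. IIA cells were assigned by their top hashtag (at least 10 counts and 3 times the next), with the deposited hashtag names matched by number. No doublets were removed in the main analysis. Cells were clustered in scanpy 1.11.5 (2000 variable genes without the 5 genes, 30 components, 15 neighbours, Leiden 1.0), and a cluster was named when at least 3 markers of a list were among its 100 leading genes and no other list led. UMIs were summed per sample and class, with at least 10 cells per sum, and tested across all genes by edgeR 4.0.16 (quasi-likelihood, TMM, R 4.3.3) with Benjamini-Hochberg adjustment at 0.05; a difference is log2 of biotin positive over negative. The edgeR comparison of the sorts over all cells was checked on simulated counts for lung, bone and IIA bone. Thinning and the permutation test were checked on made-up values. The other fits were not checked in this way. Alternatives were DESeq2 1.42.0, no low-count filter, each replicate left out, a replicate block, 10% mitochondrial UMIs, 20 cells per sum, a hashtag ratio of 5, RLE size factors, leaving out the 5% of cells with the highest Scrublet score, shares at 2000 UMIs or not thinned, and phagocytes without monocyte clusters.

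Replicate numbers in the intracardiac experiment were taken to mark pools, which the sample titles do not name. The 112 same-number pairs shared 0 barcodes and 188 of 384 different-number pairs shared some, as samples split from 1 multiplexed run would. In IIA bone, the number is the injection number of the labels. The 5 genes are named in every comparison, and for likeness the 3 genes with the highest r. Of the pathway lists, genes past the test are named only in part. List genes also passed in brain phagocyte-like cells, and over all biotin-negative cells in liver against bone and in lung against bone and brain. These are not described. The members and lists were chosen with earlier results of these data known. Some genes among cluster leaders and list members are not reported here.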

Additional observations from a re-analysis of the deposited data

Results flagged for a closer look

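In 12 of 91 groups of 4 to 10 samples, 1 sample lay far from the others by Dixon's test, which chance does in about 1 group in 20. In the sums of all cells, intracardiac bone biotin-negative replicate 1 stood apart in 3 of the 5 genes: Cxcl10 at 27.7 CPM, Cxcr3 at 13.4 and Cxcr6 at 10.9, each the highest of its group. Bone biotin-positive replicate 1 was highest for Cxcr6, at 4.02 CPM. Liver biotin-negative replicate 3 was highest for Cxcl9, at 28.2 CPM over all cells and 62.9 CPM in phagocyte-like cells, and IIA biotin-negative replicate 2 was highest for the same gene, at 27.4 CPM over all cells and 110.8 CPM in phagocyte-like cells. IIA biotin-positive replicate 4 was highest for Cxcr3, at 2.33 CPM. Lung biotin-negative replicate 2 was lowest for Cxcr6, at 3.91 CPM. In phagocyte-like cells brain biotin-positive replicate 1 held 202 CPM of Cxcl9 and lung biotin-positive replicate 1 held 27.0 CPM of Cxcl10, the highest of their groups. In that brain sample only 0.362% of all 552 cells had a Cxcl9 UMI.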

How the results depend on the processing

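Values were counted once per result and alternative. For biotin and 4-tissue comparisons over all cells and shares of cells with a UMI, 200 kept their direction and side of the threshold, 7 newly passed and 6 changed sign; with 1 replicate left out, 325 kept both, 33 no longer passed, 16 changed sign and 3 newly passed. For comparisons within cell classes and between single pairs of tissues, 180 kept both, 7 newly passed, 4 no longer passed and 16 changed sign; with 1 replicate left out, 310 kept both, 3 newly passed, 15 no longer passed and 24 changed sign. DESeq2 called Cxcl16 (2.23) and Cxcr6 (-1.94) in liver, Cxcl9 in lung (1.89) and Cxcr6 over the 4 tissues (adjusted p = 0.0268). The replicate block gave 1.74 for Cxcl16 and -0.14 for Cxcr6 in brain, and 1.99 for Cxcl9 and -1.85 for Cxcr3 in lung; in T-like cells it gave -0.093 for Cxcr3 and -0.17 for Cxcr6 in bone and -0.052 for Cxcr6 in lung, and -0.18 for Cxcl10 in bone phagocytes. Without the low-count filter T-like cells gave -0.14 (Cxcr3, bone), -0.13 (Cxcr6, bone), -0.022 (Cxcr3, brain) and -0.092 (Cxcr6, lung). Scrublet gave Cxcl10 of phagocytes -0.27 in bone and 0.0011 in lung. Phagocytes without monocyte clusters gave -0.037 for Cxcl16 in bone (1 negative sample, so no comparison), -0.0069 in liver and -1.61 in brain, -0.0054 for Cxcl10 in brain, and -2.50 (liver) and -3.61 (lung) for Cxcl9. Share differences, in percentage points, moved to 1.56 (Cxcr3, T-like, liver, not thinned), -0.196 (Cxcr6, T-like, lung, 2000 UMIs), 4.61 and 10.1 (Cxcl16, brain phagocytes, 2000 UMIs and not thinned) and 0.545 (lung phagocytes, not thinned). The cause was not tested in any of these.

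Leaving out 1 replicate gave these ranges over all cells: Cxcl10 -0.73 to 0.59 in bone and 1.34 to 2.19 in IIA bone; Cxcl9 1.45 to 2.44 in lung and 2.89 to 5.38 in IIA bone; Cxcr3 -0.16 to 0.37 in brain; Cxcr6 -2.34 to 0.35 in bone, -1.20 to 0.54 in brain and -3.44 to -2.59 in lung. The adjusted p over the 4 tissues ranged from 0.0455 to 0.671 for Cxcl10, 0.0205 to 0.135 for Cxcl16, 0.00663 to 0.0531 for Cxcl9 and 0.0142 to 0.272 for Cxcr6. In phagocytes Cxcl10 ranged from -0.77 to 1.01 in bone and -1.27 to 0.45 in lung, Cxcl16 from -0.38 to 0.073 in lung, Cxcl9 from -1.11 to 2.98 in liver and Cxcr3 from -0.021 to 0.91 in brain. In T-like cells Cxcr3 ranged from -0.29 to 0.22 in bone, -0.044 to 0.28 in brain and -0.62 to 0.089 in liver, Cxcr6 from -0.14 to 0.33 in bone and -0.13 to 0.40 in lung, and Cxcl10 from -1.07 to 0.56 in lung. Share differences ranged from -4.80 to 2.61 (Cxcr3, bone) and -0.510 to 6.76 (Cxcr3, lung), -6.90 to 0.556 (Cxcr6, liver) and -0.303 to 4.43 (Cxcr6, lung) in T-like cells, and -2.43 to 0.731 (Cxcl16) in brain phagocytes. The replicate block moved the count of genes called from 339 to 762 in brain and from 1544 to 3906 over the 4 tissues, and DESeq2 called 1225 in brain. Without negative replicate 1, negative replicate 4 or positive replicate 4 the brain count was 3, 6 and 7, and the lowest count in lung was 1280 in place of 2254, without negative replicate 4. Without the monocyte clusters brain phagocytes gave 9 in place of 3441. Over all liver cells, leaving out biotin-positive replicate 2 gave 61 genes called against 0. Between tissues, leaving out 1 replicate gave 105 to 2577 genes called for liver against bone, in place of 1060. For lung against bone it gave 1674 to 4080, in place of 3348. The replicate block gave 3260 and 5717 for these 2 pairs.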
